A study of Mus musculus with 24 samples.

Results

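The genes examined here lie on mouse chromosome 16 around Crebbp, which encodes the transcriptional co-activator CBP. They were chosen by position, except that some genes of the interval were set aside by name. All protein-coding genes of the GENCODE M21 annotation (GRCm38) that overlap the chromosome between its start and 14213997, which is 10 Mb past the end of Crebbp, were matched by Ensembl identifier to the table of counts. Of 94 such genes, Crebbp, Abat, Grin2a, Adcy9, Dnaja3 and Rpl39l were set aside, and 88 remained out of 21793 protein-coding genes and 51826 gene identifiers in the table. Of the 88, 14 lie on the centromeric side of Crebbp (chr16:4081328-4213997, minus strand), the farthest 0.482 Mb away, and 74 on the telomeric side, the farthest 9.98 Mb away. There were 37 genes within 1 Mb, 11 between 1 and 5 Mb and 40 between 5 and 10 Mb.

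RNA was sequenced from the dorsal hippocampus of mice labelled as male and of the C57BL/6J background, 2 to 4 months old, in 24 libraries. The paper's methods instead state that its groups included both sexes. RNA-Seq 1 (total RNA after removal of ribosomal RNA) held 3 WT homecage, 3 WT mice trained in the Morris water maze (MWM), a spatial task, and 3 CBP KIX/KIX mice trained in the MWM. RNA-Seq 2 (poly-A selected RNA) held 3 WT homecage mice, 4 WT and 4 CBP KIX/KIX mice trained in contextual fear conditioning (CFC), in which a chamber is paired with a foot shock, and 4 CBP KIX/KIX homecage mice. CBP KIX/KIX mice carry, in every cell and on both alleles, substitutions in the KIX domain through which CBP binds transcription factors such as CREB, and the WT mice were littermates from heterozygous matings.

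Genes on one chromosome are inherited together, and the closer they lie the more seldom they are separated. Mice chosen to be homozygous for a changed Crebbp therefore also share the chromosome around it, as do their WT littermates around the unchanged allele. A difference in a neighbouring gene that comes from the KIX substitution and one that comes from other inherited differences of the surrounding DNA cannot be told apart in these counts. The region itself is gene-dense near Crebbp, where zinc-finger, DNA repair and mitochondrial genes lie side by side. Farther along are the long neuronal gene Rbfox1, the protamine genes of sperm chromatin and a group of immune genes around Ciita and Socs1. The question put to the data was whether expression of these genes differed between genotypes, in each training state, and whether the difference depended on the distance from Crebbp.

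Libraries held 38174044 to 65709282 counts in RNA-Seq 1 and 15385836 to 46056290 in RNA-Seq 2, so that 3 counts correspond to between 0.0457 and 0.195 CPM (counts scaled to library size). The 6 hippocampal markers were detected in every library, with a summed level of 673.75 to 957.20 CPM. Of the CBP KIX/KIX homecage libraries 3 stood apart (replicates 2, 3 and 4): Gfap, the intermediate filament of astrocytes, was at 618, 894 and 1600 CPM in them and at 252 to 373 CPM in the other 12 libraries of RNA-Seq 2, and Drd1, a dopamine receptor most abundant in striatum, was at 14 to 20.7 CPM against 4.16 to 7.3 CPM. The summed level of 6 choroid plexus markers ran from 31.91 to 4587.23 CPM and was high and low in libraries of both genotypes. In bulk tissue, fewer cells of a type and less RNA per cell cannot be told apart.

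Crebbp mRNA did not differ measurably between genotypes. Its mean was 164 ± 24.7 CPM in WT and 153 ± 13.1 CPM in CBP KIX/KIX mice after MWM (SD, n = 3 each), 71.77 ± 4.496 and 74.5 ± 4.29 CPM after CFC (n = 4 each), and 73.9 ± 4.74 (n = 3) and 70.4 ± 5.11 CPM (n = 4) in homecage. The log2 fold change over all 3 training states was -0.03 (95% interval -0.13 to 0.07, adjusted p = 0.84). A substitution leaves the transcript countable, so this level does not check the genotype labels. Of the 5 neighbours set aside with it, Abat (GABA transaminase) was the only one called in a genotype comparison, at a log2 fold change of -0.17 ± 0.02 (SE) after learning.

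Genotypes were compared after MWM, after CFC and in homecage, and these 3 comparisons share no library. Of the 88 genes, 75 had enough counts to be tested after MWM, 72 after CFC and 72 in homecage. With edgeR's quasi-likelihood test and Benjamini-Hochberg adjustment over all genes, none passed an adjusted p of 0.05 in any of them, where 0.00938%, 0.0057% and 0.0107% of all genes tested did. At an unadjusted p under 0.05 there were 8 of the genes around Crebbp after MWM (background 10.5% of all genes), 5 after CFC (3.51%) and 4 in homecage (6.17%). DESeq2 called 0, 1 and 0 of them, the 1 being Clec16a after CFC. In the fit over all 3 states, with state as a block, 2 of 75 passed, Clec16a and Tekt5, where 0.12% of 21642 genes passed, and 8 were under an unadjusted p of 0.05 (background 10.9%).

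The lowest p-values over all 3 states were those of 3 genes about 6 Mb from Crebbp. Clec16a, which encodes a membrane-associated regulator of autophagy and mitophagy, was higher in CBP KIX/KIX mice. Tekt5, a tektin of sperm flagella, and Emp2, a 4-pass membrane protein of epithelia, were lower. Clec16a lies at chr16:10545339-10744878 on the plus strand, 6.33 Mb from Crebbp, Tekt5 at chr16:10357948-10395490 on the minus strand (6.14 Mb), and Emp2 at chr16:10281749-10313968 on the minus strand (6.07 Mb). The stretch from the end of Emp2 nearest to Crebbp to the far end of Clec16a is 463.1 kb long and holds 7 of the 88 genes. Emp2 and Tekt5 are separated by 44.0 kb, and none of these 3 genes shares exon bases with another protein-coding gene.

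The sequence before the start of each gene is shown because these neighbours moved in different directions and are read from different strands. Each run is the 250 bases before the start site in RefSeq (GRCm38.p6), 5′ to 3′ on the strand of the gene. Capitals mark a match to the TGACG core of the cAMP response element, to which CREB binds (CGTCA on the other strand). The windows are chr16:10313969-10314218 (minus) for Emp2, chr16:10395456-10395705 (minus) for Tekt5 and chr16:10545089-10545338 (plus) for Clec16a.
Emp2: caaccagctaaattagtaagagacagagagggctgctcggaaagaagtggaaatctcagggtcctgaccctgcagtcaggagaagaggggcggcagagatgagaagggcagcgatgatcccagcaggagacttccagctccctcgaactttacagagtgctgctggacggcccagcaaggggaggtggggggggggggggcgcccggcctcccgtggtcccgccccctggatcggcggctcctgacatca
Tekt5: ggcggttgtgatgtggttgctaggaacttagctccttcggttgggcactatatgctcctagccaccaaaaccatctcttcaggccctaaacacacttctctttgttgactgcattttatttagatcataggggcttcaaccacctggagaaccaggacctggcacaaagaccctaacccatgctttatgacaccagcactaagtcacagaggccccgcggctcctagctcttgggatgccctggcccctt
Clec16a: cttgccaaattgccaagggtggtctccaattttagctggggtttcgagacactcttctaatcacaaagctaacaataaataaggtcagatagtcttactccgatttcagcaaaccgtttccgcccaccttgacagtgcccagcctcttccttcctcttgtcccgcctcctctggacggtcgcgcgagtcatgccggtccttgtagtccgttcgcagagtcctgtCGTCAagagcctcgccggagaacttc

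The Clec16a window held 1 such core, which begins 26 bases before the start, and the Emp2 and Tekt5 windows held none. None of these 3 windows held the full element (TGACGTCA) or the E-box that CLOCK and BMAL1 bind (CACGTG). Across the table of 32851 promoters of 300 bases, from 250 before to 50 after the start, 20.8% held the core, 1.79% the full element and 7.15% the E-box, on either strand (the full element contains the core). Of the 75 tested genes near Crebbp, 60 had 72 promoters in the table, of which 26.4% held the core, 4.17% the full element and 15.3% the E-box. That is 19, 3 and 11 promoters. They belong to genes with enough counts to be tested, while the full set also holds promoters of untested genes, so the shares are not of like sets. The full element was found for Glyr1, Trap1 and Ubn1. These are matches of letters, not measured binding.

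After MWM, Clec16a was at 97.2, 99.6 and 87.7 CPM in the WT libraries and at 109, 108 and 126 CPM in the CBP KIX/KIX libraries. After CFC it was at 114, 132, 136 and 113 CPM in WT and at 162, 170, 152 and 148 CPM in CBP KIX/KIX mice. In homecage the values were 113, 132 and 127 CPM in WT and 169, 133, 173 and 183 CPM in CBP KIX/KIX mice. The genotypes did not overlap in any state, although the lowest CBP KIX/KIX homecage library was close to the highest WT one. The log2 fold change was 0.28 ± 0.08 (SE) after MWM, 0.35 ± 0.07 after CFC and 0.41 ± 0.11 in homecage, and 0.35 ± 0.05 over all states (adjusted p = 0.0042), which is 27.3% higher. Its p ranked 7 among 21642 genes and 1 among the 482 protein-coding genes tested on chromosome 16. Leaving out any 1 of the 21 libraries kept the call, at log2 fold changes of 0.32 to 0.37. The 3 WT homecage libraries of RNA-Seq 1, which enter no genotype comparison, were at 123, 113 and 86.8 CPM, a range that takes in all but 1 of the MWM libraries of both genotypes.

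Tekt5 went the other way, at a low level. After MWM it was at 4.89, 3.71 and 4.89 CPM in WT and at 3.28, 1.64 and 3.57 CPM in CBP KIX/KIX mice. After CFC it was at 7.71, 5.95, 6.50 and 7.51 CPM in WT and at 5.41, 4.55, 3.48 and 4.89 CPM in CBP KIX/KIX mice, and in homecage at 8.50, 7.31 and 8.67 CPM and at 5.73, 5.24, 3.65 and 1.82 CPM. In each state all CBP KIX/KIX libraries were below all WT libraries. In homecage the CBP KIX/KIX values fell from replicate 1 to replicate 4, while Gfap rose (342, 618, 894 and 1600 CPM). Replicate 1, with Gfap within the WT range, was also below the WT libraries. The difference on the log2 scale was -0.61 ± 0.22 after MWM, -0.58 ± 0.14 after CFC and -0.89 ± 0.27 in homecage. Over all states it was -0.69 ± 0.14 (adjusted p = 0.040, 37.9% lower). That call held without 6 of the 21 libraries left out in turn (WT MWM 2, WT CFC 2, CBP KIX/KIX MWM 3, CFC 1, and homecage 1 and 4) and was lost without each of the other 15, at an adjusted p of at most 0.103.

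Emp2 was at 24.2, 20.3 and 22.3 CPM in WT and 19.6, 17.9 and 13.2 CPM in CBP KIX/KIX mice after MWM. After CFC the WT libraries held 26.1, 23.6, 23.4 and 29.0 CPM and the CBP KIX/KIX libraries 15.7, 21.6, 20.5 and 19.7 CPM. In homecage the values were 25.9, 24.5 and 24.2 CPM against 17.1, 22.3, 25.2 and 17.96 CPM, so that only here did 1 library, CBP KIX/KIX replicate 3, lie among the WT values. Its differences on the log2 scale were -0.39 ± 0.13, -0.40 ± 0.11 and -0.27 ± 0.13 in the 3 states. Over all states Emp2 missed the threshold, at -0.36 ± 0.08 and an adjusted p of 0.068, and it passed when CBP KIX/KIX CFC replicate 1 or homecage replicate 3 was left out. It passed in 5 of 9 other settings, among them DESeq2 (adjusted p = 0.0026) and no filter on low counts (0.048).

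**Figure D1:**
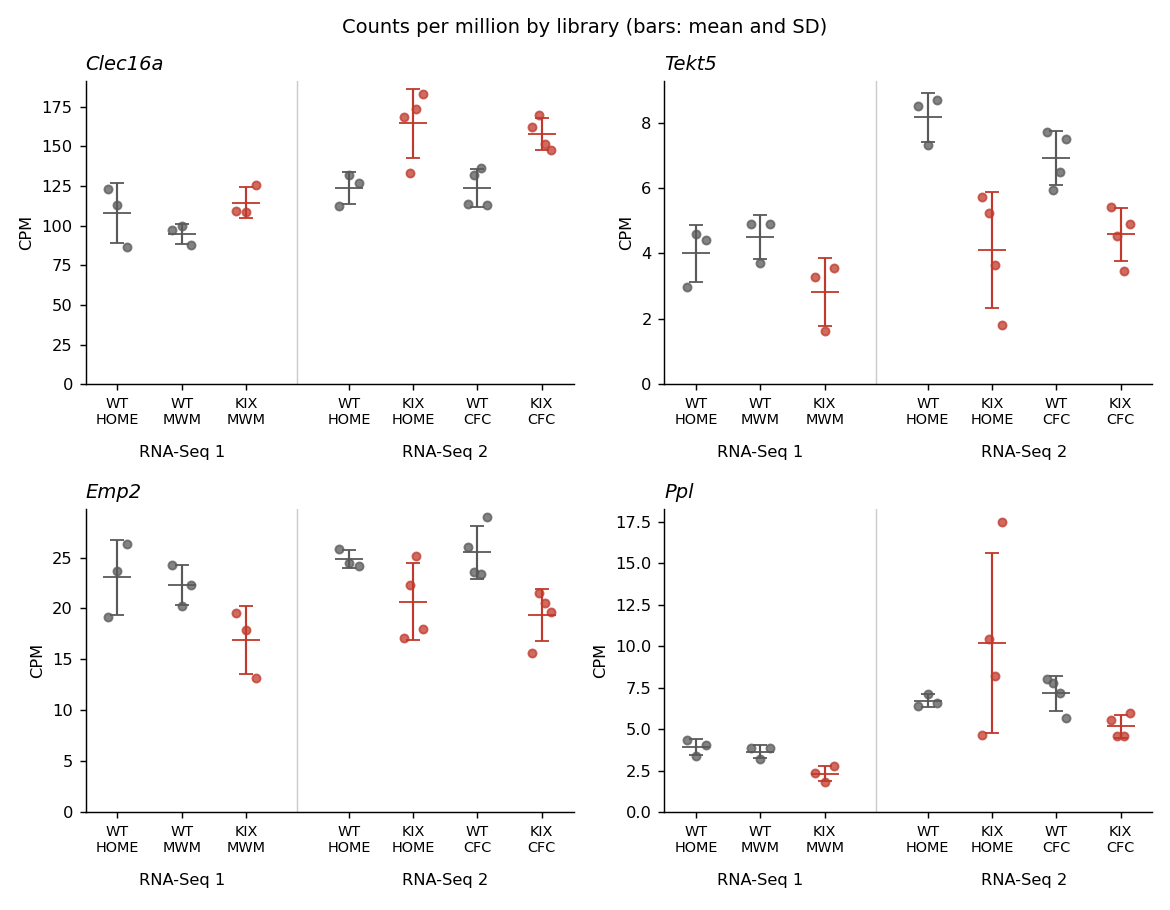
CPM (y axis, from 0) of Clec16a, Tekt5, Emp2 and Ppl in each of the 24 libraries (points), by group on the x axis, WT in grey and CBP KIX/KIX (KIX) in red, with mean and SD as bars. Clec16a was higher and Tekt5 lower in every CBP KIX/KIX library than in the WT libraries of the same state, Emp2 was lower in all but 1, and Ppl was lower after MWM and spread from 4.68 to 17.5 CPM in homecage.

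The 4 genes between Tekt5 and Clec16a differed less over all states. They are Nubp1 (iron-sulfur cluster assembly), Tvp23a (a Golgi membrane protein), Ciita (the activator of MHC class II genes) and Dexi. Their log2 fold changes over all states were 0.01 ± 0.05, 0.08 ± 0.06, -0.14 ± 0.11 and -0.09 ± 0.05. None of them passed the threshold in a genotype comparison. Dexi was lower in each state. After MWM it did not overlap, at 28.7 to 36.1 CPM in CBP KIX/KIX and 37.1 to 37.7 CPM in WT mice (background 17.4%). The start of Dexi, which is read from the minus strand, lies 2.28 kb from the start of Clec16a, and Dexi shares exon bases with Ciita. Ciita was at 1.17 to 4.19 CPM over the 24 libraries, so its differences were measured less precisely than those of Dexi at 26.1 to 45.3 CPM. The differences of Tvp23a pointed in opposite directions, at -0.12 ± 0.08 after MWM and 0.26 ± 0.11 in homecage.

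**Figure D2:**
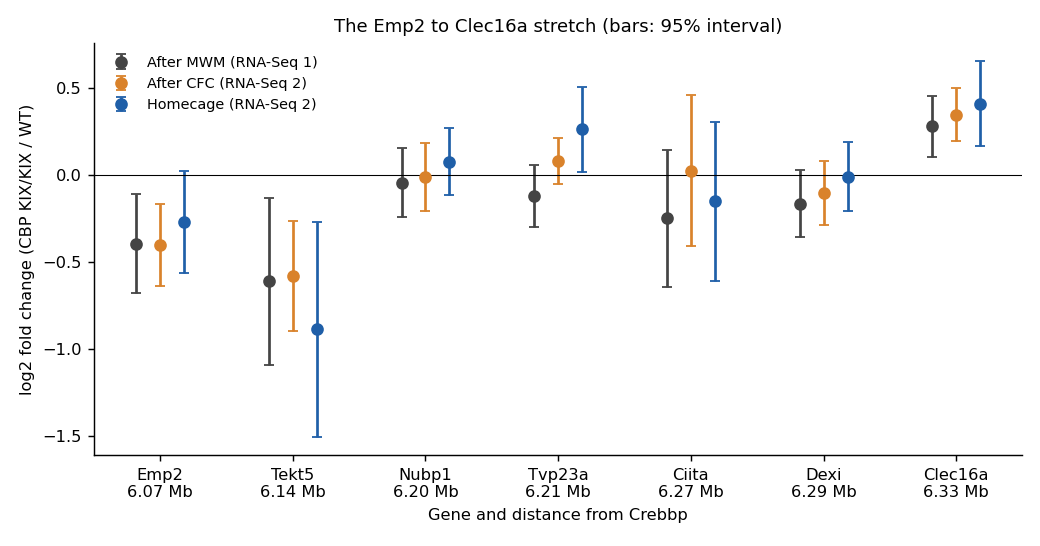
Log2 fold change of CBP KIX/KIX over WT (y axis) of the 7 genes from Emp2 to Clec16a, in order of distance from Crebbp (x axis), in the 3 training states, with 95% intervals as bars. The intervals of Tekt5 lie below 0 and those of Clec16a above 0 in all 3 states, that of Emp2 includes 0 in homecage, and those of Nubp1, Ciita and Dexi include 0 throughout.

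The genes closest to Crebbp did not pass the threshold in any genotype comparison. The 9 tested genes within 0.25 Mb were Zfp174 and Zfp597 (zinc-finger proteins), Naa60 (a protein N-terminal acetyltransferase), 1700037C18Rik, Cluap1 (transport in cilia), Nlrc3 (an innate immune regulator), Slx4 (a scaffold of DNA repair nucleases), Dnase1 (a secreted nuclease) and Trap1 (a mitochondrial chaperone). Over all states their log2 fold changes lay between -0.16 and 0.06, the lowest being Nlrc3 at -0.16 ± 0.12. Trap1, 0.0035 Mb from Crebbp, was at 71.3 ± 2.11 CPM in WT and 69.4 ± 1.13 CPM in CBP KIX/KIX mice after CFC (SD, n = 4 each). Its log2 fold change was -0.04 ± 0.03 over all states. Slx4 was at 33.5 ± 4.602 and 30.4 ± 1.39 CPM after MWM (n = 3 each), and its log2 fold change was -0.03 ± 0.04 over all states. Dnase1 shares exon bases with Trap1 on the opposite strand, and whether the counts used strand is not given in the sources used here. It differed by -0.28 ± 0.16 after MWM and by 0.20 ± 0.10 after CFC.

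The size of the genotype difference showed no trend towards Crebbp. After MWM the median absolute log2 fold change was 0.106 in the 32 tested genes within 1 Mb, 0.0564 in the 11 at 1 to 5 Mb and 0.103 in the 32 at 5 to 10 Mb, beside 0.138 in all genes and 0.119 in 388 other protein-coding genes of chromosome 16. After CFC these medians were 0.0436, 0.0450 and 0.0451, beside 0.0552 and 0.0467. In homecage they were 0.0604, 0.0601 and 0.0909, beside 0.0968 and 0.0861. With all libraries each of these bins was below the median of all genes. Beside the protein-coding genes alone (0.118, 0.0483 and 0.0846 in the 3 states), the 5 to 10 Mb bin was above in homecage. Single libraries moved some of the bin medians by more than 1.5 times. The median within 1 Mb after MWM was 0.0658 without WT replicate 2 and 0.162 without WT replicate 3, and that at 1 to 5 Mb was 0.103, 0.0855 and 0.101 without WT replicate 3 and CBP KIX/KIX replicates 1 and 2. After CFC the medians at 1 to 5 and 5 to 10 Mb were 0.0276 and 0.0728 without CBP KIX/KIX replicate 2. Across the tested genes, Spearman's rho between distance and absolute log2 fold change was -0.09 after MWM (n = 75), 0.02 after CFC (n = 72) and 0.09 in homecage (n = 72). These are descriptions over genes measured in the same libraries, and the absolute log2 fold change fell with the level of the gene, with rho of -0.36, -0.41 and -0.33.

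**Figure D3:**
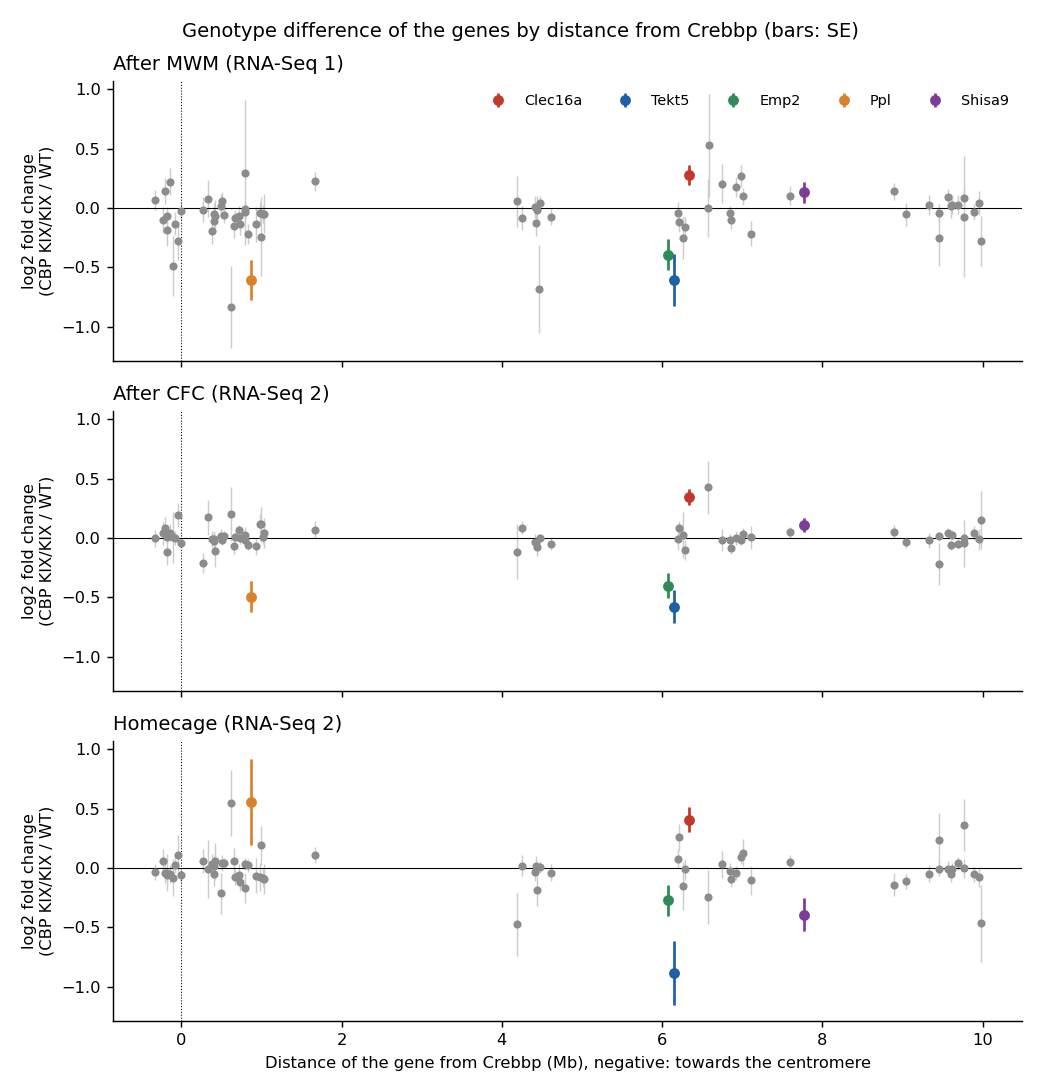
Log2 fold change of CBP KIX/KIX over WT (y axis, bars: SE) of each tested gene against its distance from Crebbp in Mb (x axis, negative towards the centromere), in the 3 training states. Clec16a, Tekt5 and Emp2, near 6 Mb, keep their side of 0 in all states, and Ppl and Shisa9 change sides in homecage.

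**Figure D4:**
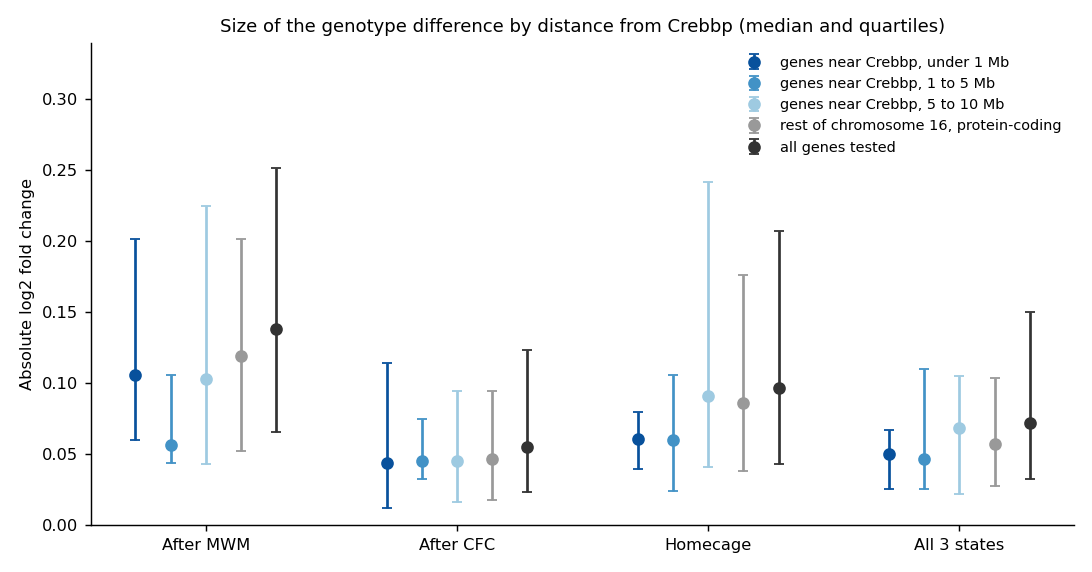
Median and quartiles of the absolute log2 fold change (y axis, from 0) of the tested genes under 1 Mb, 1 to 5 Mb and 5 to 10 Mb from Crebbp, of the other protein-coding genes of chromosome 16 and of all genes tested, in each comparison (x axis). With all libraries no distance bin lies above the median of all genes. That of 5 to 10 Mb lies above the other protein-coding genes of chromosome 16 in homecage and over all states.

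In an alternative split into bins of 2 Mb, most genes with a low unadjusted p over all states lay in 1 bin. Over all states, 7 of the 18 tested genes at 6 to 8 Mb had an unadjusted p under 0.05, against 1 of 35 at 0 to 2 Mb, 0 of 8 at 4 to 6 Mb and 0 of 14 at 8 to 10 Mb, and no gene was tested at 2 to 4 Mb. The share of all genes was 10.9%. The 7 were Emp2, Tekt5, Clec16a, Rmi2, Txndc11, Rsl1d1 and Cpped1. In the single states this bin held 4 of 18 after MWM, 3 of 17 after CFC and 4 of 17 in homecage. The shares of all genes were 10.5%, 3.51% and 6.17%. The median absolute log2 fold change of this bin was 0.170 after MWM, 0.0499 after CFC, 0.103 in homecage and 0.0878 over all states, beside 0.138, 0.0552, 0.0968 and 0.0716 for all genes. Its median log2 fold change with sign was 0.02 over all states, so the genes in it did not shift to 1 side. 4930562C15Rik, 0.621 Mb from Crebbp and under 1 CPM in every library, was at -0.83 ± 0.35 after MWM and 0.55 ± 0.28 in homecage. Rmi2, a DNA repair factor named here after its values were seen, was at most 0.440 CPM in any library and was tested only in the fits that join states.

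Some genes of the group kept 1 side in all libraries, a larger share than among all genes. The CPM of all 11 CBP KIX/KIX libraries lay on the same side of the WT mean of their state for 4 of the 72 genes tested in all 3 states, where 1.22% of 17180 genes did so. They were Clec16a and Cpped1 above, and Tekt5 and Txndc11 below. Txndc11, a thioredoxin-domain protein of the endoplasmic reticulum 6.86 Mb from Crebbp, had log2 fold changes of -0.10 ± 0.07, -0.09 ± 0.05 and -0.10 ± 0.06. It shares exon bases with Snn on the opposite strand. Cpped1, a phosphatase 7.59 Mb from Crebbp, differed by 0.11 ± 0.08, 0.05 ± 0.05 and 0.05 ± 0.05. Over all states Txndc11 was at -0.09 ± 0.03 (adjusted p = 0.28) and Cpped1 at 0.07 ± 0.03 (adjusted p = 0.40), so neither passed. Groups of libraries did not overlap for 12 of 75 genes after MWM (background 17.4%), 4 of 72 after CFC (2.54%) and 2 of 72 in homecage (6.88%). The 4 after CFC were Clec16a, Tekt5, Emp2 and Nudt16l1, and the 2 in homecage were Clec16a and Tekt5.

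Few of the genes had the same direction in all 3 states. Of the 72 genes tested in all 3 states, 17 had the same sign in each (5 higher, 12 lower), which is 23.6%, beside 31.6% of all genes. Over the 72 genes, Spearman's rho between the log2 fold changes was 0.24 for MWM and CFC, 0.01 for MWM and homecage and 0.01 for CFC and homecage, beside 0.14, 0.15 and 0.03 over all genes. The 3 comparisons share no library, but the genes are not independent of each other.

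The differences of Ppl and Shisa9 had opposite signs in trained and homecage mice. Ppl encodes periplakin, which ties intermediate filaments to cell junctions, and lies 0.872 Mb from Crebbp. Ppl was at 3.86, 3.17 and 3.85 CPM in WT and 2.36, 1.84 and 2.76 CPM in CBP KIX/KIX mice after MWM. After CFC it was at 8.05, 7.78, 7.18 and 5.70 CPM in WT and 5.54, 4.62, 4.56 and 5.95 CPM in CBP KIX/KIX mice. On the log2 scale the genotypes differed by -0.61 ± 0.17 and -0.50 ± 0.13, without overlap after MWM and with 1 WT library among the CBP KIX/KIX values after CFC. In homecage the WT libraries held 6.43, 7.15 and 6.602 CPM and the CBP KIX/KIX libraries 4.68, 10.5, 8.21 and 17.5 CPM, at a log2 fold change of 0.56 ± 0.36.

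The 3 high homecage values of Ppl are those of the libraries with high Gfap. Without these 3 libraries the difference over all states moved from -0.17 ± 0.19 to -0.55 ± 0.09 (adjusted p = 0.0086), a choice made after the values were seen. The 1 CBP KIX/KIX homecage library then left, at 4.68 CPM, was below the 3 WT libraries, which gives no test in homecage. Summed over 3 genes each, astrocyte markers were at 501.63 to 1905.81 CPM and striatal markers at 8.98 to 29.46 CPM in the CBP KIX/KIX homecage libraries, against 495.54 to 556.27 and 12.1 to 12.6 CPM in WT homecage, with none at 0. Both ranges were carried mainly by Gfap and Drd1. Aqp4 reached 256 CPM against at most 137 CPM in WT homecage, while the means of Aldh1l1 (44.7 and 44.8 CPM), Drd2 (4.30 and 4.17 CPM) and Adora2a (2.02 and 1.68 CPM) were close in CBP KIX/KIX and WT homecage. In trained mice Aldh1l1 was lower in CBP KIX/KIX mice without overlap, at 84.6 to 92.8 against 98.1 to 117 CPM after MWM and 37.1 to 39.6 against 42.5 to 54.9 CPM after CFC, as was Gfap after MWM, at 191 to 206 against 244 to 275 CPM. Aqp4 was at 59.3 to 75.5 against 61.1 to 62.3 CPM after MWM. The part of these markers in the differences of Ppl, Emp2 and Tekt5 was not tested.

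Shisa9, an auxiliary protein of AMPA-type glutamate receptors 7.77 Mb from Crebbp, showed the reverse. In homecage it was at 70.2, 71.3 and 66.9 CPM in WT and at 67.0, 54.1, 47.8 and 41.7 CPM in CBP KIX/KIX mice, a log2 fold change of -0.39 ± 0.14. After CFC it was at 63.8, 59.4, 70.6 and 64.2 CPM in WT and 71.6, 67.0, 65.6 and 74.98 CPM in CBP KIX/KIX mice (0.11 ± 0.06), and after MWM at 23.3, 26.0 and 27.2 against 26.3, 26.5 and 30.6 CPM (0.13 ± 0.09). The CBP KIX/KIX homecage library with ordinary Gfap, replicate 1, was the only one within the WT range. The test of the difference between CFC and homecage gave 0.51 ± 0.16 for Shisa9 and -1.05 ± 0.41 for Ppl, neither past the threshold (adjusted p = 0.94 for both).

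**Figure D5:**
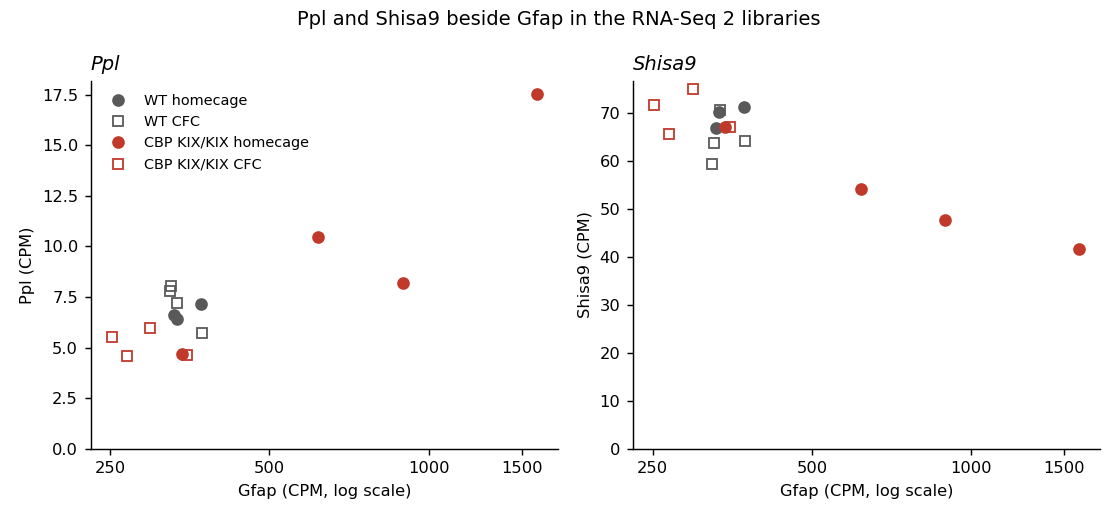
Ppl and Shisa9 (y axes, CPM, from 0) against Gfap (x axes, CPM, log scale) in the 15 libraries of RNA-Seq 2, circles for homecage and squares for CFC, WT in grey and CBP KIX/KIX in red. The 3 libraries with Gfap at 618 CPM or more have the 3 highest Ppl values and the 3 lowest Shisa9 values.

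The comparison of genotype after learning joined MWM and CFC, as in the design of the study, with 4 factors of unwanted variation estimated from residuals (RUVr). It called 6 of 75 genes, where 2.92% of 21489 genes (627) were called, and 15 were under an unadjusted p of 0.05 (background 19.1%). The paper reported fewer genes at this threshold with its own normalisation and RUVSeq, so these calls do not repeat that analysis. Clec16a was higher (0.32 ± 0.05, adjusted p = 0.0047), as was Rbfox1 (0.14 ± 0.03, adjusted p = 0.020). Ppl (-0.56 ± 0.08, adjusted p = 0.0029), Emp2 (-0.41 ± 0.07, adjusted p = 0.0079), Tekt5 (-0.61 ± 0.11, adjusted p = 0.012) and Ubn1 (-0.13 ± 0.03, adjusted p = 0.019) were lower. Rbfox1 is a neuronal splicing regulator 1.67 Mb from Crebbp, and Ubn1 is a subunit of the HIRA complex, which deposits a histone variant. Without RUVr factors 0 of the 75 genes and 5 of all genes were called, while the 6 log2 fold changes stayed within 0.02 of these values. Rbfox1 was also not called without the filter on low counts (adjusted p = 0.10) or with GC-content normalisation (0.059), nor Ubn1 with GC-content normalisation (0.071) or 2 RUVr factors (0.064).

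Rbfox1 was at 222, 266 and 248 CPM in WT and 294, 292 and 271 CPM in CBP KIX/KIX mice after MWM, with no overlap, and at 376 to 419 against 389 to 494 CPM after CFC, where the groups overlapped. Ubn1 was at 100, 80.4 and 85.6 against 75.6, 72.5 and 78.9 CPM after MWM and at 73.8 to 82.2 against 74.1 to 77.6 CPM after CFC. For both the difference after MWM was the larger. Rbfox1 was not called when WT MWM 1, CBP KIX/KIX MWM 1 or 2 or CBP KIX/KIX CFC 2 was left out, and Ubn1 not when WT MWM 1 or CBP KIX/KIX MWM 1 or 2 was. The genotypes after MWM and after CFC were not shown to differ from each other for any of the genes (0 of 75 called, background 0%).

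By role, the calls were spread over several lists, at 8% of the tested genes after learning and 2.67% over all states. Of 13 tested genes of transcription and RNA factors, Rbfox1 and Ubn1 were called after learning and none over all states, where 2.92% and 0.12% of all genes were. Their median log2 fold change was -0.01 over all states, where the median of all genes was -0.0042. Mrtfb, a co-activator of serum response factor, was at -0.07 ± 0.04. Of 13 genes of ubiquitin, lysosome and trafficking, Clec16a alone was called, in both comparisons with the same background. The abundant ones, Mgrn1 (an E3 ubiquitin ligase) and Cdip1, were at -0.05 ± 0.03 and 0.00 ± 0.03. The 11 mitochondrial, haem and glycosylation enzymes lay between -0.09 and 0.03, with Hmox2 (haem oxygenase) at 0.03 ± 0.03, and none was called.

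Of the 13 membrane and signalling genes, Emp2 and Ppl were called after learning (background 2.92%) and none over all states (0.12%), where the list had a median of -0.08. Snn was at -0.03 ± 0.03 and Ubald1 at -0.05 ± 0.06. None of the 5 genes of translation and rRNA synthesis was called, the largest difference being 0.10 ± 0.04 for Rsl1d1, a nucleolar protein, with Gspt1 (translation termination) at 0.09 ± 0.05 and Rrn3 (initiation by RNA polymerase I) at 0.04 ± 0.03. Of the DNA repair genes, neither Ercc4 (0.02 ± 0.05) nor Slx4 was called, nor was any of 5 tested immune genes. Among these, Litaf was at 0.07 ± 0.08 and Socs1, an inhibitor of cytokine signalling, at 0.07 ± 0.13. Of 6 sperm and testis genes only Tekt5 was tested in all states, and Prm1, a protamine, only after MWM (0.53 ± 0.44).

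Training did not call any of the genes in the unpaired tests. There were 0 of 75 for MWM training in WT (background 0.0139%), 0 of 72 for CFC training in WT (0.116%) and 0 of 72 for CFC training in CBP KIX/KIX mice (0.0113%), with 5, 2 and 3 under an unadjusted p of 0.05, that is 6.67%, 2.78% and 4.17% beside 9.37%, 4.1% and 9.52% of all genes. DESeq2 also called 0 in each. Same-numbered homecage and trained libraries deviated together in each training comparison, with r of 0.146 to 0.32 for MWM in WT. For CFC it was 0.242 to 0.54 in WT and 0.179 to 0.419 in CBP KIX/KIX mice, a pairing that the unpaired tests leave out. Blocked results for CFC training are not given here. With the replicate number as a block, 3 genes were lower after MWM training, where 2.58% of all genes were called. They were Tfap4, an E-box binding factor (-0.66 ± 0.18, adjusted p = 0.017), Sec14l5 (-0.46 ± 0.13, adjusted p = 0.019) and Litaf (-0.46 ± 0.12, adjusted p = 0.015). Without the block these differences were -0.65 ± 0.16, -0.45 ± 0.17 and -0.46 ± 0.16. The difference of the genotype effect between CFC and homecage was not called for any of 73 genes (background 0%), with 3 at an unadjusted p under 0.05.

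Of the 88 genes, 13 were tested in no single state. Among them were the olfactory receptors Olfr161 and Olfr15, the sperm genes Prm2, Prm3 and Tnp2, and Mefv, which acts in innate immune cells. Their highest level in any library was 0.440 CPM, and 2 of them had no count in any of the 24 libraries. Per kilobase of exon, the WT libraries of RNA-Seq 2 held the most RNA for Rbfox1 (90.8 CPM per kb), 2900011O08Rik (88.0), Rogdi (86.5) and Snn (84.5), followed by Mgrn1 at 48.1. Rbfox1 ranged from 83.0 to 95.2 CPM per kb over the 7 libraries and Snn from 79.8 to 87.1, so these 4 genes do not separate from each other. In all, 33 of the 88 share exon bases with another protein-coding gene, where reads of overlapping genes may have been split or dropped.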

How the data were processed

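RNA-Seq libraries of 24 dorsal hippocampi were processed by the authors with bcbio-nextgen, STAR, SAMtools 1.6 and featureCounts 1.4.4 (mm10, GRCm38), per the submitters' processing notes, and deposited as raw counts per gene. The annotation release and the strand setting are not given in the sources used here. Of 51826 identifiers, 51633 matched GENCODE M21.

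Counts were normalised by upper quartile and tested with edgeR 4.0.16 (R 4.3.3) quasi-likelihood fits after filterByExpr, with Benjamini-Hochberg adjustment over all genes tested and a threshold of 0.05. RUVr (4 factors) was used after learning. EDASeq and RUVSeq were not used here, and RUVr was written anew. A standard error is the log2 fold change divided by the root of F. CPM are upper-quartile scaled. DESeq2 1.42.0 was an alternative. The genotype fits and the interaction of genotype and training were first run on simulated counts holding 200 genes of known change. Other alternatives were TMM, no count filter, the legacy fit, GC-content normalisation (10 bins), replicate block, leaving out each library, and covariates.

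The genes, lists and tests were chosen with earlier results of these data known. Genes were named if called in a genotype comparison or interaction, among the 3 of lowest p in each direction and state, within 0.25 Mb of Crebbp, on 1 side in all 11 CBP KIX/KIX libraries, or among the 2 most abundant of a role list. Replicates are labelled separate samples. The sources do not tie each to 1 animal, so p-values measure the spread between these samples. No pair of replicates agreed within sampling noise (chi-square per gene 2.59 or more). Same-numbered libraries deviated together (r = 0.146 to 0.54) in the training comparisons, in which every pair was above 0.1. In the genotype comparisons they did not after MWM (-0.262 to -0.027). The range was -0.217 to 0.577 after CFC and 0.027 to 0.35 in homecage, where the main genotype tests do not block on the number.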

Additional observations from a re-analysis of the deposited data

Results flagged for a closer look

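Within groups of 4 libraries, 1 value stood apart from the other 3 in 3 of 99 groups tested for the named genes, where chance gives about 1 in 20. The highest CBP KIX/KIX CFC library for Slx4 was at 33.5 CPM, with a gap to the next of 0.906 of the range of the group. The highest WT CFC library for Cpped1 was at 43.6 CPM (0.900 of the range), and the lowest WT CFC library for Snn was at 237 CPM (0.891).

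Some genes lay on one side of the WT mean in every CBP KIX/KIX library of 1 state and on the other side in every such library of another. The share of all genes that did so is not given here. The log2 fold change of Shisa9 was lower in homecage than after CFC by a difference of -0.503 and than after MWM by a difference of -0.526. The interaction of genotype and training gave an adjusted p of 0.94 for Shisa9, and MWM against homecage was not tested. The log2 fold change of Dnase1 was higher after CFC than after MWM by 0.477 (interaction adjusted p = 0.76). That of Tvp23a was higher after CFC than after MWM by 0.201 (interaction adjusted p = 0.76) and higher in homecage than after MWM by 0.382, which was not tested. That of 4930562C15Rik, at less than 1 CPM, was higher in homecage than after MWM by 1.381, and that of Cdip1 by 0.098, and neither was tested. MWM and homecage here also differ in library type.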

How the results depend on the processing

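The number of genes called stayed at 0 after MWM and in homecage under every alternative run. After CFC DESeq2 called 1 (Clec16a). Over all 3 states the count was 2. It was 2 with TMM, GC normalisation or the block, 3 (with Emp2) with DESeq2, no count filter or the choroid plexus covariate, 1 with the legacy fit (Clec16a), 4 with 4 RUVr factors and 4 without CBP KIX/KIX homecage 2, 3 and 4, an alternative chosen after seeing the data, as was the choroid plexus covariate. Leaving out 1 library gave 1 to 3 over all states and 4 to 7 after learning, where no RUVr factors gave 0. For MWM training it gave 0 to 7, the 7 without WT homecage replicate 3, and with the replicate block 3 were called. For CFC training in CBP KIX/KIX mice and for the interaction of genotype and training it gave 0 to 1, the 1 being Shisa9 without CBP KIX/KIX homecage replicate 1. After learning the replicate block called 9, adding Dexi, Rsl1d1 and Ubald1 to the 6, and it changed no count of the other genotype comparisons. Same-numbered WT and CBP KIX/KIX libraries did not deviate together after MWM (r = -0.262 to -0.027). After CFC r was -0.217 to 0.577 (other numbers -0.611 to 0.46), and in homecage 0.027 to 0.35 (-0.261 to 0.167). Whether the number marks a shared block in RNA-Seq 2 was not tested, and the unblocked genotype tests leave it out.

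Some named genes with a log2 fold change near 0 over all 3 states, none past the threshold, changed sign. Without CBP KIX/KIX homecage 2, 3 and 4 they were Dnase1 (-0.0249), Tvp23a (-0.0124), 4930562C15Rik (-0.0460), Shisa9 (0.0842), Zfp174 (-0.0328) and Cdip1 (-0.0029). Zfp174 also changed sign with TMM (-0.0024), DESeq2 (-0.0028), no count filter (-0.0020), GC normalisation (-0.0020), the replicate block (-0.0018) and the choroid plexus covariate (-0.0026), 4930562C15Rik with DESeq2 (-0.0075) and the legacy fit (-0.0087), and Naa60 (0.0006) and Cdip1 (-0.0233) with GC normalisation. With 1 library left out, Dnase1 ran from -0.0195 to 0.0804, 4930562C15Rik from -0.1004 to 0.1159, Zfp174 from -0.0237 to 0.0195, Slx4 from -0.0507 to 0.0017 and Cdip1 from -0.0059 to 0.0198. The cause was not tested. The median absolute log2 fold change at 1 to 5 Mb after MWM ran from 0.0743 to 0.1027 with 1 library left out, above its value of 0.0564 with all. Groups held 3 or 4 libraries. On the log2 scale, the median standard error of the genes was 0.0961 after MWM, 0.0643 after CFC and 0.0883 in homecage. None was called in these comparisons. The largest absolute log2 fold changes were 0.833 (4930562C15Rik after MWM), 0.578 and 0.885 (Tekt5 after CFC and in homecage). Their standard errors were above these medians, so they do not show how large a difference a gene of median precision needed. Gene counts do not show sequence differences between the inherited chromosomes.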
